A study of Rattus norvegicus with 20 samples.

Results

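The miRNA precursors rno-mir-140, rno-mir-191a, rno-mir-320 and rno-mir-423, chosen by their high read levels in rat serum, were followed across serum and 15 tissues. The selection took mir-140 and mir-423 by name and every precursor whose name begins with mir-191 or mir-320, which gave 6 of the 444 miRBase precursors. Leaving aside mir-1912, whose arms were not counted, they carried 8 of the 577 listed mature miRNAs. The 2 further precursors were mir-191b, at no more than 0.05 estimated reads in any library, and mir-1912, an unrelated miRNA of the X chromosome that shares only the first digits of the name. mir-1912 had 13, 9 and 6 reads in the brain libraries, 1 read in lung and 0 in the other libraries, serum included, and neither precursor is described further. Since these miRNAs were selected on their serum levels, their serum values are given as a description and carry no test.

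miRNAs are cut from hairpin precursors, and either the 5′ arm (5p) or the 3′ arm (3p) can be loaded into Argonaute, where bases 2 to 8, the seed, pair with target mRNAs. Cells also release miRNAs, bound to proteins or inside vesicles, and a small set of them is found in blood at high levels. miR-140 is best known from cartilage. miR-191 and miR-423 are broadly expressed and, with miR-16 and miR-93, are often used as reference miRNAs in blood assays. miR-320 is unusual in that its hairpin is made without Drosha, the nuclear enzyme that cuts most primary miRNA transcripts.

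The mature sequences are shown because the reads fell on the arms very unequally, and because the seeds separate these miRNAs from one another. They are printed 5′ to 3′ from RefSeq (GRCr8), with the seed in capitals.
miR-140-5p: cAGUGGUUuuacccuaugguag
miR-140-3p: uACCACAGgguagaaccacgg
miR-191a-5p: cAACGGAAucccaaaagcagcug
miR-191a-3p: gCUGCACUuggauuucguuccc
miR-423-5p: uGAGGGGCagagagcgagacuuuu
Of the 8 listed arms, 6 had an entry, the sixth being miR-191b. The arms miR-320-3p and miR-423-3p are named only. No seed was shared among the arms shown. Elsewhere in the RefSeq rat set, miR-191a-3p shared its seed with miR-17-2-3p and miR-423-5p with miR-3573-5p, and the other 3 arms shown had no seed partner.

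The mir-140 hairpin is shown whole, with both annotated arms in capitals, because its reads lay on the precursor but hardly on these arms. It lies at chr19:52375293-52375391 on the plus strand of GRCr8, within the span of Wwp2, a ubiquitin ligase gene.
mir-140: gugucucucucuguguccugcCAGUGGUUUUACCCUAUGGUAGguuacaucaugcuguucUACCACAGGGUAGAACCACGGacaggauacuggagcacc
The mir-191a hairpin lies at chr8:118142627-118142717 on the plus strand, within the span of Dalrd3, and the mir-425 hairpin starts 366 bases beyond its end. miR-191b is read from the opposite strand of the same place, and 20 of its 21 bases lie opposite miR-191a-3p. The mir-423 hairpin lies at chr10:62412272-62412350 on the minus strand, within the span of Nsrp1, a splicing regulator gene. These positions are those of GRCr8, whereas the reads had been aligned to Rn5.

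The rats, all male Long Evans at postnatal day 35, were untreated and had drunk no ethanol. Brain was an entire hemisphere with 3 libraries, serum had 3 libraries labelled replicates 1 to 3, and each of 14 other tissues (fat, heart, kidney, large intestine, liver, lung, hindlimb muscle, pancreas, skin, small intestine, spleen, stomach, testes and thymus) was 1 library of RNA pooled from 3 rats, with no replicate. The files hold estimated read counts, given here as reads per 1000000 reads (RPM) on all precursors, or on all mature miRNAs, of the same library. Precursor totals were 388275 to 1204552 reads in brain, 162080 to 3685761 in the pools and 7556 to 10862 in serum, so that 3 reads, the limit a count of 0 allows, came to 276 to 397 RPM in serum. Intervals are 95% Wilson intervals and cover counting error only. In these bulk RNA pools, fewer cells of a type and less miRNA per cell cannot be told apart.

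Several libraries bear on what follows. Of the 3 pancreas markers, mir-216a and mir-217 were at 0 in the library labelled pancreas and mir-375 was at 496 RPM, and the liver miRNA mir-122 stood there at 14862 RPM against 14726 RPM in liver. Across 295 precursors the log2 levels of these 2 libraries had Pearson's r of 0.97, above the 0.95 of the next closest pair of pools, so the serum comparison, the spread over tissues, the likeness of tissue patterns and the tests of brain against the pools were repeated without it. Serum 2 held mir-122 at 142147 RPM, against 21175 and 10340 RPM in the other serum libraries. The red cell list (6 of 7 listed) summed to 67759 to 93443 RPM in serum, 7680 to 9817 RPM in brain and 5888 to 65271 RPM in the pools. Its most red cell restricted member, mir-451, stood at 2117 to 3909 RPM in serum. The leukocyte and platelet list (6 of 6) summed to 19241 to 37831 RPM in serum and 4500 to 83510 RPM in the pools, highest in spleen. Of the brain list (6 of 6) the 3 copies of the neuronal mir-124 were at 0 in serum, while the 3 copies of mir-9a had 1, 2 and 3 reads over the serum libraries and the list summed to 126 to 662 RPM. Of the heart list mir-208a was at 0 and mir-499 had 3 reads. Of the skeletal muscle list mir-206, the 1 listed member, was at 0 in serum. It reached only 176 RPM in the muscle pool itself, below what a count of 0 in serum allows. The muscle marker mir-133a, which the list had named by its copies, was therefore not counted in it. Its log2 ratio of serum mean to tissue median was 3.28, with 1 RPM added. The part of blood cells in the serum levels was not tested.

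mir-191a was the most abundant of the chosen precursors in serum, mir-140 and mir-423 followed at about the same level as each other, and mir-320 was far lower. mir-191a had 850, 830 and 872 reads in serum 1 to 3, which is 112493, 76413 and 109962 RPM, a mean of 99623 ± 20140 RPM (SD, n = 3). Among all precursors its rank in the single serum libraries ran from 1 to 3. mir-140 had 211, 247 and 251 reads, or 27925, 22740 and 31652 RPM (27439 ± 4476 RPM, SD, n = 3), and ranked 9 or 10 in each library. mir-423 had 210, 183 and 217 reads, or 27792, 16848 and 27364 RPM (24002 ± 6199 RPM, SD, n = 3), and its rank ran from 10 to 19. mir-140 and mir-423 thus overlapped between libraries. mir-320 had 12, 14 and 18 reads, or 1588, 1289 and 2270 RPM (1716 ± 503 RPM, SD, n = 3). With so few reads its interval in serum 1, 909 to 2774 RPM, covered the values of the other serum libraries.

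Serum 2 gave the lowest RPM for all 4 precursors. It was also the library with the most mir-122, and a link between these observations was not tested. Together the 4 precursors took 11.7% to 17.1% of the serum precursor reads (15.3% ± 3.07, SD, n = 3). They took 1.64% to 1.86% in brain and 0.389% to 3.51% in the pools.

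Each of the 4 precursors lay higher in every serum library than in any of the 17 tissue libraries. Of the 295 precursors that reached 10 counts in 3 or more tissue libraries, 24 did so (8.14%), the 4 among them. Because the choice rested on serum level, nothing is read from the difference between these shares. The serum mean stood 18.7-fold above the highest tissue for mir-140 (thymus), 6.46-fold for mir-423 (spleen), 4.25-fold for mir-320 (skin) and 3.34-fold for mir-191a (spleen). Against the median of the 15 tissues the same ratios were 54.2, 14.98, 10.8 and 11.7.

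These ratios depended on how the libraries were scaled. With TMM factors, which are set so that most miRNAs change little, the serum mean was 4.81-fold (mir-140), 1.98-fold (mir-423), 1.43-fold (mir-320) and 1.40-fold (mir-191a) above the highest tissue. With DESeq2's size factors it was 4.93-fold, 2.40-fold, 1.76-fold and 1.43-fold. The highest tissue then became thymus for mir-191a, small intestine for mir-320 and liver for mir-423, and remained thymus for mir-140. Under both scalings all 4 precursors still lay above every tissue library, as did 11 of 295 precursors (3.73%) in each. Across all 3 scalings 9 precursors did so, and 4 of them were the chosen ones. TMM scaling also brought the serum libraries together for mir-140, to 12354 ± 177 RPM (SD, n = 3). With DESeq2's size factors mir-140 was at 13826 ± 2092 RPM (SD, n = 3). Under TMM scaling mir-191a was at 44763 ± 4925 RPM, mir-423 at 10716 ± 1655 RPM and mir-320 at 762 ± 95.9 RPM (SD, n = 3).

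**Figure D1:**
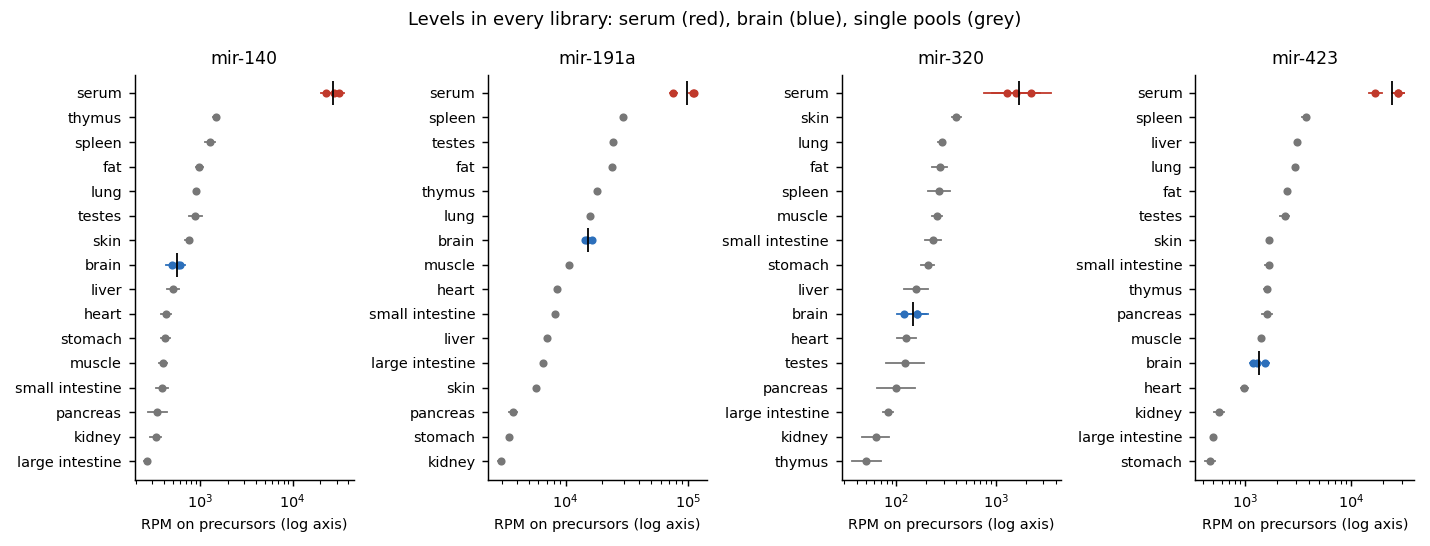
Levels of mir-140, mir-191a, mir-320 and mir-423 in RPM of precursor reads (log axis) in every library, ordered by level. Points are libraries with their 95% Wilson intervals and black ticks are the means of the 3 serum and the 3 brain libraries. The serum points lie to the right of all tissue points in each panel, and the order of the tissues differs between panels.

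The tissue levels of mir-140 fell within a narrow range, and by library totals its highest tissues were lymphoid. Brain had 565, 606 and 489 RPM (554 ± 59.4 RPM, SD, n = 3), and the 14 pools ran from 263 RPM in large intestine through a median of 464 RPM to 1464 RPM in thymus. Thymus was followed by spleen at 1265 RPM and fat at 970 RPM. The intervals of thymus and spleen overlapped, whereas spleen and fat were apart. From brain down to kidney, neighbours in the order all overlapped, so the order in that stretch is not resolved.

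mir-191a was the most abundant of the 4 in every tissue, and with its many reads it was also the best resolved against counting error. Brain had 14468, 14853 and 16383 RPM (15235 ± 1013 RPM, SD, n = 3). The pools ran from 2937 RPM in kidney through a median of 8333 RPM to 29834 RPM in spleen. Spleen was also the pool with the highest sum of the leukocyte and platelet list (83510 RPM), and the part of those cells in its level was not tested. Testes (24395 RPM) and fat (23961 RPM) came after spleen and overlapped with each other. Of the 15 steps from one place in the order to the next, 11 were larger than the intervals for mir-191a, against 6 for mir-423, 4 for mir-140 and 2 for mir-320. This order is by library totals, and the intervals leave out the scaling between libraries. With TMM factors or DESeq2's size factors the highest tissue for mir-191a was thymus, so a step larger than the intervals need not hold under other scalings.

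By library totals mir-423 shared its highest tissue, spleen, with mir-191a. With TMM factors or DESeq2's size factors it was liver for mir-423 and thymus for mir-191a. Brain had 1289, 1190 and 1553 RPM (1344 ± 188 RPM, SD, n = 3), and the pools ran from 466 RPM in stomach through a median of 1631 RPM to 3716 RPM in spleen. Liver (3107 RPM) and lung (2982 RPM) came next and overlapped. The lowest 3 tissues, kidney, large intestine and stomach, lay between 466 and 562 RPM and could not be put in order.

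By library totals mir-320 had a different order from the other 3, with skin at the top and thymus at the bottom. Brain had 120, 161 and 162 RPM (148 ± 24.4 RPM, SD, n = 3), and the pools ran from 50.1 RPM in thymus through a median of 183 RPM to 404 RPM in skin. Skin was apart from lung (287 RPM), but from lung down to thymus all neighbours overlapped. In thymus, where mir-140 was at its tissue maximum, mir-320 rested on 33 reads.

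All 4 precursors varied less between tissues than the median precursor. The SD of log2(RPM + 1) over the 15 tissues was 0.76 for mir-140, 0.88 for mir-320, 0.95 for mir-423 and 1.08 for mir-191a, against a median of 1.69 over the 295 precursors. Counted from the lowest spread, they ranked 11, 25, 38 and 55 of 295. The highest tissue exceeded the lowest 5.56-fold for mir-140, 8.06-fold for mir-320, 7.98-fold for mir-423 and 10.2-fold for mir-191a. These ranks moved with the number added before the logarithm, because it flattens miRNAs of low level most. With 10 RPM added in place of 1 they became 40, 60, 100 and 131, and the median spread of all precursors became 1.19. Without the pancreas pool they were 11, 29, 41 and 51.

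**Figure D2:**
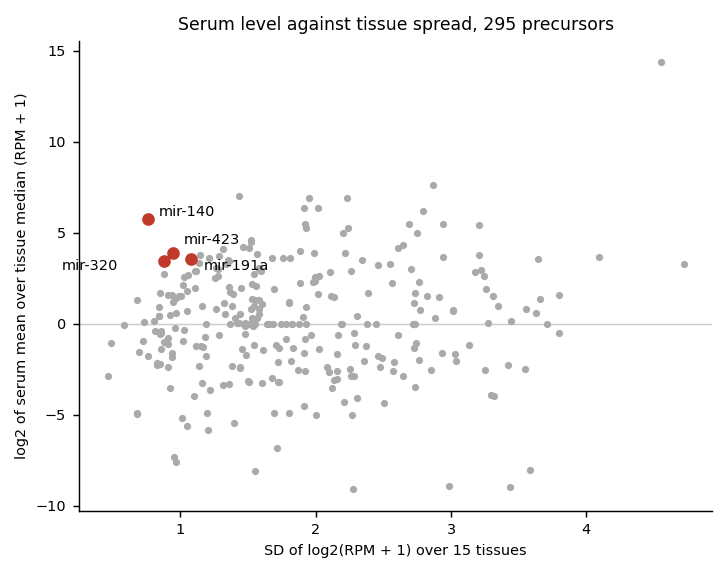
Each point is 1 of 295 precursors. The x axis is the SD of log2(RPM + 1) over 15 tissues and the y axis the log2 ratio of the serum mean to the tissue median, both with 1 RPM added. The 4 red points are the chosen precursors, at spreads of 0.76 to 1.08 and log2 ratios of 3.43 to 5.76, in the upper left of the cloud.

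The precursors whose tissue pattern was most like each of the 4 were sought among the 295, outside the family itself, by Pearson's r of log2(RPM + 1) over 15 tissues. These coefficients describe tissues that share libraries and depth, and no test is attached. For mir-140 they were mir-106b (r = 0.90), mir-93 (0.87) and mir-25 (0.87), which are the 3 members of a single cluster in a host gene, so that they are not independent of each other. For mir-191a they were its genomic neighbour mir-425 (0.88), mir-361 (0.83) and mir-342 (0.81). For mir-423 they were mir-92a-1 (0.82), mir-15b (0.72) and mir-425 (0.69). For mir-320 they were mir-23a (0.74), mir-23b (0.70) and mir-224 (0.70). With TMM-scaled libraries mir-224 had r of 0.38 with mir-320 and mir-342 had 0.57 with mir-191a, whereas mir-425 had 0.82 with mir-191a. Among the 4, r was highest for mir-140 with mir-191a (0.78) and lowest for mir-140 with mir-320 (0.21) and mir-191a with mir-320 (0.23). With TMM-scaled libraries these became 0.55, −0.07 and −0.26, so the relation of mir-320 to the other 2 turned in sign. Without the pancreas pool the 12 coefficients of the most alike precursors were 0.68 to 0.90.

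mir-425 lies beside mir-191a and was much less abundant. It had 10, 15 and 19 reads in serum, or 1323, 1381 and 2396 RPM (1700 ± 603 RPM, SD, n = 3), close to mir-320 in level. In brain it had 291, 321 and 312 RPM (308 ± 14.998 RPM, SD, n = 3), and in the pools 111 RPM in stomach to 1246 RPM in spleen. Its reads were 1.18% to 2.18% of those of mir-191a in serum, 1.90% to 2.16% in brain and 1.98% in heart to 6.29% in pancreas among the pools. The proportion of mir-425 to mir-191a in serum thus lay at the low end of the tissues, with wide intervals. By library totals mir-425 was also above every tissue library in serum, by 1.36-fold for the mean over the highest tissue. Under TMM scaling the ratio was 0.518 and under size factors 0.544, so that serum then lay below thymus.

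Of 13 other precursors of miRNAs in common use as references for blood, all measured, 1 (mir-425) lay above every tissue library by totals. Both copies of mir-24 and of mir-103 were counted among them. The median log2 ratio of serum to the tissue median over the 13 was 0.46, and over all 295 precursors it was 0.03. The highest of the list in serum was mir-16 at 26024 RPM, between mir-140 and mir-423 in level, and the lowest was mir-222 with 1 read in 3 libraries.

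The level of mir-140 depended on which annotation was read. Almost none of its precursor reads were counted under either listed arm. In serum 0, 4 and 0 reads fell on miR-140-3p and 0 on miR-140-5p in all 3 libraries, 0.564% of the 709 precursor reads. In brain it was 2.94%, 5.49% and 4.74%, and in the pools 1.23% in heart to 5.97% in kidney. Serum overlapped the pools and lay below the 3 brain libraries, but its shares rest on 4 reads. The interval of serum 2, 0.63% to 4.09%, overlapped those of all 3 brain libraries. In no library did more than 5.97% of the mir-140 reads fall on the arms as annotated.

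The other 3 precursors were covered by their arms to a much larger extent. For mir-423 the share was 95.6% to 98.6% in serum, 94.9% to 95.7% in brain and 85.4% to 96.8% in the pools. For mir-191a it was 76.5% to 81.5% in serum, 89.6% to 91.9% in brain and 68.7% to 91.5% in the pools. For mir-320, of which only the 3p arm is listed, it was 64.3% to 72.2% in serum and 54.9% to 60.3% in brain, and in the pools it ran from 6 of 20 reads in testes to 63.8% in skin. Over the 33 precursors with an arm of the same name and at least 10 reads in every library, the median share was 86.8% in serum and 85.5% in brain, and mir-140 was the third lowest in both. The 2 lower ones were mir-378a and mir-10b, which were named after their values were seen. The mature list therefore put miR-140-3p at 190 ± 329 RPM in serum (SD, n = 3) with reads in 1 of 3 libraries, while the precursor list put mir-140 at 27439 RPM. Which end of the hairpin the uncounted reads came from cannot be read from these counts.

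**Figure D3:**
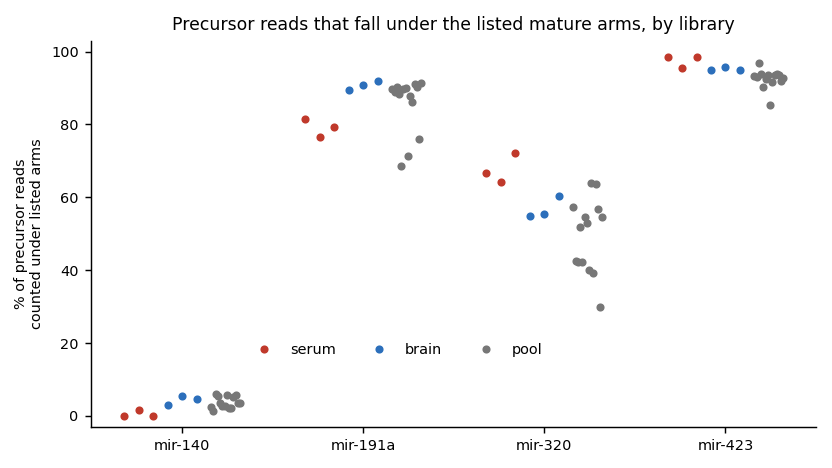
Percentage of each precursor's reads that were counted under its listed mature arms. Each point is a library, in red for serum, blue for brain and grey for the pools. The points of mir-140 lie between 0% and 5.97%, and those of mir-423 between 85.4% and 98.6%.

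For mir-191a the serum and tissue reads came from the same arm. miR-191a-5p, the guide arm, had 693, 635 and 692 reads in serum, which is 141805, 90430 and 127511 RPM of mature reads (119915 ± 26516 RPM, SD, n = 3), and was the highest or second highest mature miRNA in each library. In brain it stood at 15282, 15829 and 17824 RPM (16312 ± 1338 RPM, SD, n = 3) and in the pools at 3527 RPM in stomach to 35168 RPM in spleen. miR-191a-3p had 0 of 2020 serum reads of both arms, which allows a share of up to 0.149%. Its share was 0.154% to 0.218% in brain and 0.0583% to 0.2997% in the pools, so at this depth a 3p share in serum like the lower ones of the tissues would not have been detectable.

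For mir-423 the 5p arm carried most reads everywhere, and the 3p arm was a smaller fraction in serum than in any tissue library. miR-423-5p had 201, 166 and 202 reads in serum, or 41130, 23640 and 37221 RPM of mature reads (33997 ± 9180 RPM, SD, n = 3). In brain it had 1283, 1172 and 1615 RPM, and in the pools 442 RPM in stomach to 3952 RPM in spleen. miR-423-3p had 6, 9 and 12 reads in serum, or 1228, 1282 and 2211 RPM (1574 ± 553 RPM, SD, n = 3). In brain it had 163, 167 and 134 RPM, and in the pools 54.5 RPM in stomach to 666 RPM in liver.

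The share of miR-423-3p among the reads of both arms was 2.90%, 5.14% and 5.61% in serum (4.55% ± 1.45, SD, n = 3) and 11.3%, 12.5% and 7.68% in brain (10.5% ± 2.49, SD, n = 3). In the pools it ran from 7.10% in testes through a median of 15.3% to 24.5% in skin. The 3 serum values lay below all 17 tissue values. Counting error is wide in serum, and the interval of serum 3, 3.24% to 9.54%, reached over testes, kidney and brain 3. Over the summed serum reads the share was 27 of 596, 4.53% (3.13% to 6.51%). For comparison, 26 hairpins had at least 10 reads on both arms together in each serum and brain library. The groups did not overlap for 8 of them (30.8%). The 3p share was lower in every serum than in every brain library for 6 (23.1%). Apart from miR-423, each of these 6 had a serum share of 0. For miR-191a, at 0.180% in brain, a count of 0 in a single serum library allowed 0.433% to 0.472%. Separations of this kind cannot be told from low serum depth, so these shares are a limited background for miR-423. The difference in means was the second largest of the 26 toward a lower 3p share, behind miR-126a, which was named after its value was seen. This rank depends on the share in brain, and nothing is read from it. Many of the 26 had a 3p share near 0 in brain and could not fall as far as miR-423. No test was made, since serum against tissue was the ground of the choice.

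**Figure D4:**
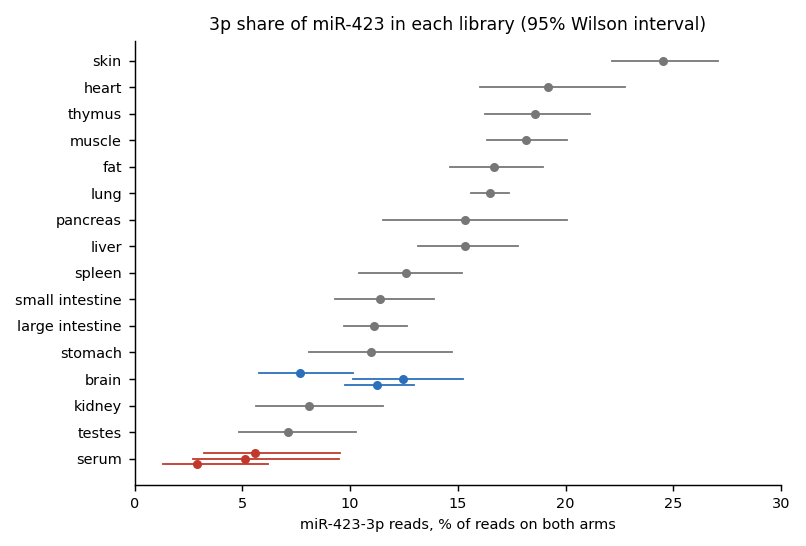
Share of miR-423-3p in percent of the reads on both arms, in every library, with 95% Wilson intervals. Serum libraries (red) lie at 2.90% to 5.61%, below every brain library (blue) and pool (grey), and the intervals of serum overlap those of testes, kidney, brain 3 and several others.

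The 1 listed arm of mir-320, miR-320-3p, had 8, 9 and 13 reads in serum, or 1637, 1282 and 2395 RPM of mature reads (1771 ± 569 RPM, SD, n = 3). In brain it had 77.5, 105 and 116 RPM, and in the pools 34.0 RPM in thymus to 374 RPM in skin, the same ends of the order as for its precursor.

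The comparison that the choice did not use was brain against the 14 pools, with serum left out. It asks whether the levels of these miRNAs in brain differed from those in the rest of the body. In edgeR (quasi-likelihood test, TMM factors, p-values adjusted by Benjamini-Hochberg over 295 precursors), mir-140 and mir-423 were lower in brain. The log2 fold change was −1.26 ± 0.41 for mir-140 (SE, adjusted p = 0.0239) and −1.45 ± 0.52 for mir-423 (adjusted p = 0.0358). mir-320, at −1.52 ± 0.64 (adjusted p = 0.0609), and mir-191a, at −0.62 ± 0.51 (adjusted p = 0.293), did not pass. So 2 of 4 were called lower, where 55 of 295 precursors were (18.6%) and 71 were called higher. By RPM the brain values of all 4 lay inside the range of the pools.

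These calls rested on the scaling and on counting the hemispheres as separate libraries. With library totals in place of TMM factors the changes were −0.26 for mir-140, −0.35 for mir-320, −0.42 for mir-423 and +0.33 for mir-191a, which reversed its direction, and none passed by edgeR (smallest adjusted p = 0.569), where 24 of 295 precursors were called lower (8.14%). The median over all precursors then moved from 0.17 to 1.20. Relative to that median all 4 were lower in brain with both scalings, by −0.79 to −1.69 on the log2 scale with TMM and −0.87 to −1.62 with totals. With DESeq2's size factors in edgeR mir-140, mir-320 and mir-423 passed (adjusted p = 0.00810, 0.00876 and 0.00700), and 82 of all precursors were called lower (27.8%). When the 3 hemispheres were summed to 1 library, since they are 1 tissue, none of the 4 passed (smallest adjusted p = 0.428) and no precursor at all was called lower in brain. Without any 1 brain library none passed either, while without the pancreas pool mir-140 and mir-423 still did.

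**Figure D5:**
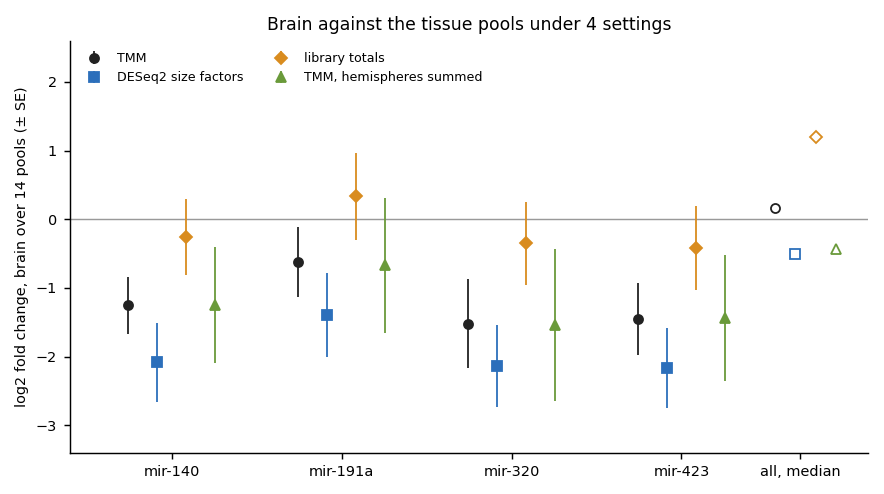
Log2 fold change of brain over the 14 pools for the 4 precursors, with SE as bars, under TMM, DESeq2's size factors, library totals, and TMM with the hemispheres summed. Open symbols on the right are the medians over all precursors tested. For mir-140, mir-320 and mir-423 all values lie below 0, and mir-191a changes side of 0 with library totals (+0.33).

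Of the mature arms, both arms of mir-423 were lower in brain by the same test over 290 mature miRNAs, of which 70 were called lower (24.1%). Here too a miRNA could enter through the 3 hemispheres alone, and 240 entered with these summed. The log2 fold change was −2.19 ± 0.64 for miR-423-3p (adjusted p = 0.0118, edgeR) and −1.60 ± 0.53 for miR-423-5p (adjusted p = 0.0217, edgeR). miR-320-3p (−1.59, adjusted p = 0.0683), miR-140-3p (−1.58, adjusted p = 0.0804), miR-191a-5p (−0.86, adjusted p = 0.213), miR-140-5p (−1.02, adjusted p = 0.249) and miR-191a-3p (−0.78, adjusted p = 0.371) did not pass in edgeR with TMM. miR-320-3p passed with DESeq2's size factors in edgeR (adjusted p = 0.0396) and with DESeq2 itself (adjusted p = 0.00234), and miR-140-3p passed with DESeq2 (adjusted p = 0.0132). In these settings many mature miRNAs were called lower in brain, 77 of 290 with the size factors and 101 of 290 with DESeq2. With library totals miR-423-3p was at −1.17 (adjusted p = 0.203) and miR-423-5p at −0.56 (adjusted p = 0.470), so both calls were lost. They were also lost with the hemispheres summed or with any 1 of them left out, and that of miR-423-5p without the filter on low counts (adjusted p = 0.0582), whereas both held without the pancreas pool (adjusted p = 0.0138 and 0.0265, edgeR).

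The ratio of 3p to 5p reads within a hairpin needs no scaling between libraries. For miR-423 the log2 change of that ratio, brain against pools, was −0.53 ± 0.39 (adjusted p = 0.514), for miR-140 −0.73 ± 0.63 (adjusted p = 0.561) and for miR-191a 0.31 ± 0.41 (adjusted p = 0.652), by edgeR over 107 hairpins, of which 7 were called in either direction (6.54%). None of the 3 passed, and none had an unadjusted p under 0.05, the smallest being 0.183. Without the pancreas pool none passed either (smallest adjusted p = 0.517, edgeR).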

How the data were processed

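The authors prepared TruSeq small RNA libraries, sequenced them on a MiSeq, trimmed low-quality bases, mapped reads by Bowtie on the rat Rn5 genome and counted them over miRBase and RefSeq features. The Bowtie version is not given in the sources used here. Serum and tissue RNA were extracted with different kits, so the kit and serum cannot be told apart. The deposited values are estimated counts (expected counts), not normalized, for 1409 features in 3 stacked lists (388 RefSeq, 444 precursor and 577 mature). The same reads were counted under each list, so RPM was taken within a list.

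Estimated counts were rounded for edgeR (4.0.16, R 4.3.3; quasi-likelihood, TMM, at least 10 counts in at least 3 libraries, Benjamini-Hochberg, threshold 0.05). DESeq2 (1.42.0) was an alternative. SE is the log2 fold change over the root of F. The hemispheres are 1 tissue entered as 3 libraries, so p-values can be too small, and nothing in the labels says how the serum libraries were drawn. The scripts were tested on simulated counts. Intervals were computed with Python 3.11.15 and SciPy 1.17.1. Serum depth was 7556 to 10862 precursor reads.

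The members and lists were chosen with earlier results of these data known. Named miRNAs are those the selection finds, their arms, the 3 most alike precursors of other families, mir-425, and the highest and lowest of each list, and marker lists were red cell, leukocyte and platelet, liver, brain, muscle, heart, skin, pancreas, testes and gut. In serum the skin, pancreas, testes, heart, brain and gut lists summed to at most 184, 1009, 504, 378, 662 and 25807 RPM. The gut sum was nearly all mir-192, with 508 serum reads, which also stood at 228719 RPM in the liver pool. The copies of mir-194 in that list had 1 and 2 serum reads, so the sum is not a measure of gut alone. Brain and serum share replicate numbers, but neither the labels nor the methods, which name 1 cohort of 3 rats, tie a number to an animal, so the libraries were not treated as paired. Alternatives changed scaling, tool, filter, annotation, totals, pseudocount, and left out replicates or the pancreas pool. Those with library totals in the fit, mature-arm reads in place of precursor reads, totals without the members, and the spread and likeness of patterns without the pancreas pool were added after seeing the data. miRNA sequences and neighbouring genes came from RefSeq tables of GRCr8.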

Additional observations from a re-analysis of the deposited data

How the results depend on the processing

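Every serum library stayed above every tissue library for the 4 precursors without the pancreas pool, without any 1 serum library, and with TMM or size factor scaling. Their summed serum mean, 152779 RPM, moved by less than 1 SD under each alternative run. Their median spread over tissues, 0.91, became 0.88 with 10 RPM added, 0.77 with TMM-scaled libraries and 0.94 without the pancreas pool. With the replicate number as a block the serum minus brain difference in the 3p share of miR-423 was −5.92 percentage points, which with 3 complete pairs equals the unpaired value by construction, and the single pairs ran from −8.36 to −2.07. The deviations of same-numbered serum and brain libraries from their group means had r of −0.03, −0.19 and −0.22 over 51 precursors. For libraries of unlike number r ran from −0.09 to 0.32. With 3 libraries per group and so few serum reads, these values cannot decide whether a number stands for the same animal. The numbers are not taken as a pairing because no label ties them to an animal.

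The brain against pools counts were the least stable. With TMM factors, 71 precursors stood higher and 55 lower in brain. With the hemispheres summed these became 12 and 0 (36 at an unadjusted p under 0.05 in either direction, edgeR), with library totals 123 and 24, with DESeq2 68 and 119, and with 1 brain library left out 24 to 26 and 14 to 16. Of mature miRNAs, 58 were higher and 70 lower. With the hemispheres summed these became 7 and 0 (30 unadjusted), with library totals 87 and 28, without the count filter 94 and 52, and with 1 brain library left out 22 to 26 and 15 to 19. For the arm ratio, 4 and 3 hairpins became 0 and 0 with the hemispheres summed (9 unadjusted) and 1 to 3 and 0 to 2 with 1 brain library left out. With library totals the direction reversed for mir-191a (0.33), miR-191a-5p (0.16), miR-191a-3p (0.25) and miR-140-5p (0.14). With DESeq2 in place of edgeR all 4 precursors were called lower in brain, mir-191a with adjusted p = 0.0138. Each call by edgeR on mir-140, mir-423 and the arms of mir-423 was lost whichever hemisphere was left out, where fewer libraries and miRNAs entered the test. The cause of these changes, the lost calls included, was not tested. Serum depth limits mir-320 (44 reads in all), miR-423-3p (27 reads) and miR-140-3p (4 reads).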
